A study of Mus musculus with 6 samples.

Results

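Osteopontin (OPN, encoded by Spp1), its receptor CD44 and the kinases that phosphorylate secreted proteins were followed at the RNA level in mammary epithelial cells (MECs). The genes are Spp1, Cd44, Fam20a, Fam20b, Fam20c and the bone and dentin matrix genes Dmp1, Ibsp and Mepe, taken from the count table by symbol. All 8 were among its 55487 genes. They were chosen with the difference between the genotypes already known, so their levels and fold changes are given as a description, with no test. MECs came from female BALB/c mice at 10 weeks of age, 3 wild-type mice and 3 IL-21isoTg mice, with 1 library per mouse. IL-21isoTg mice carry a transgene for a membrane-bound isoform of interleukin-21, expressed in T cells, and wild-type mice lack it. MECs were what remained of the digested gland after removal of cells that carry CD45 (leukocytes), CD31 (endothelium) or CD140a (fibroblasts), so they are a depleted fraction and not a positively sorted one.

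OPN is a secreted, acidic phosphoprotein of bone, milk and inflamed tissue. It belongs to the small integrin-binding ligand N-linked glycoproteins, together with the products of Dmp1, Ibsp, Mepe and Dspp, and it binds integrins through an Arg-Gly-Asp motif and cells through CD44, the main receptor of hyaluronan. FAM20C is the Golgi kinase that phosphorylates caseins and OPN at serines followed, after any residue, by glutamate. FAM20A is a pseudokinase that binds FAM20C and raises its activity. FAM20B phosphorylates a xylose in the linkage by which glycosaminoglycans are attached to proteins.

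The Arg-Gly-Asp motif is shown because it is the integrin-binding feature the secreted members have in common. Each line gives 45 bases of coding sequence from the GENCODE M21 transcripts of the reference mouse genome, 5′ to 3′ on the coding strand, and the capitals mark the 9 bases that encode Arg-Gly-Asp.
Spp1: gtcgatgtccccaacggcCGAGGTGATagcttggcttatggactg
Dmp1: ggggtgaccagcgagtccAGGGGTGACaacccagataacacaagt
Ibsp: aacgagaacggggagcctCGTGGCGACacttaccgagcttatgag
Mepe: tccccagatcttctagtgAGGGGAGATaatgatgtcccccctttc
The longest coding sequence of each gene held 1 such motif, at codon 145 of 295 in Spp1, 350 of 503 in Dmp1, 293 of 324 in Ibsp and 183 of 441 in Mepe, counted from the start codon. The serine-any-glutamate triplets that FAM20C recognises numbered 20 in Spp1 and 40 in Dmp1, or 6.78 and 7.95 per 100 codons, against 8 in Ibsp and 7 in Mepe, or 2.47 and 1.59 per 100 codons. Aspartate and glutamate made up 23.1% of the Spp1 codons, 28.0% of those of Dmp1, 24.1% of those of Ibsp and 10.7% of those of Mepe. A triplet is a match of letters, and whether it is phosphorylated was not measured.

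Spp1 and the other 3 secreted members lie in 1 cluster on chromosome 5 of GRCm38. Dmp1 is at chr5:104202613-104214102, Ibsp at chr5:104299171-104311469, Mepe at chr5:104325329-104338611 and Spp1 at chr5:104435118-104441050, all on the plus strand. Fam20c is at chr5:138754514-138810077 on the plus strand. Fam20a at chr11:109669749-109722279, Fam20b at chr1:156678532-156719086 and Cd44 at chr2:102811141-102901665 are on the minus strand. The annotation holds 7 transcripts for Spp1 and 9 for Cd44, and the counts are sums over a gene, so variant forms of CD44 were not told apart.

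The promoter of Spp1 is shown because Spp1 had the widest difference between the genotypes among these genes. The line below gives the 250 bases before the first RefSeq start of Spp1 on GRCm38.p6, chr5:104434861-104435110 on the plus strand. It holds 2 motif matches, in capitals. The first is the RUNX core ACCACA, and the second, near the end, is a CCAAT box read on the opposite strand (ATTGG).
Spp1 promoter: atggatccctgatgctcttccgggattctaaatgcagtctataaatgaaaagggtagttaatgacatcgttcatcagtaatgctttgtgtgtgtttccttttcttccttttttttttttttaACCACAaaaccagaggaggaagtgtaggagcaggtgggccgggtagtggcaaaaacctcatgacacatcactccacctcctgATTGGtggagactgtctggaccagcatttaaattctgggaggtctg
Every one of the 8 genes had at least 1 RefSeq promoter, 10 in all, and the 250 bases before each start were searched on both strands for the RUNX core and the CCAAT box. A STAT element, spelled TTCNNNGAA, and an element of the AP-1 factors, spelled TGANTCA, were searched in the same way. The matches shown do not overlap one another. The window of a further RefSeq start of Spp1, chr5:104435942-104436191, held no match of any of these motifs. CCAAT, the letters bound by the factor NF-Y, was found for 7 of the 8 genes, all but Cd44, and it occurs in 33.9% of all 32851 RefSeq promoter windows. ACCACA was found for 3 genes (Spp1, Dmp1 and Mepe) and in 14.05% of all windows. A gene was counted if any of its windows held the motif, whereas the shares are per window. Neither the STAT element, in 7.02% of all windows, nor the AP-1 element, in 6.75%, was matched in a window of these 8 genes.

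The CCAAT matches of the 4 clustered genes and of the FAM20A and FAM20C genes are set side by side below because they show the orientation and the distance to the start. Each line gives 25 bases read along the strand of the gene, with the match in capitals, and the mice were BALB/c whereas the sequences are of the reference strain.
Spp1, chr5:104435055-104435079: ccacctcctgATTGGtggagactgt
Dmp1, chr5:104202550-104202574: cctgaggctcATTGGctctgaggag
Ibsp, chr5:104299223-104299247: cacagctgtgATTGGctgttgagag
Mepe, chr5:104325298-104325322: aaccatgctgATTGGacatcggggg
Fam20a, chr11:109722295-109722319: gggcgccaggCCAATccaggcagcg
Fam20c, chr5:138754998-138755022: cacggctccgCCAATctgcgggcgc
In all 4 clustered genes the box stood in the reversed form ATTGG, beginning 46 bases before the RefSeq start in Spp1, 57 in Dmp1, 54 in Ibsp and 21 in Mepe. In Fam20a and Fam20c it stood in the forward form, 71 and 73 bases before the start, and Fam20a held a further reversed match 144 bases before it. The window of another, earlier RefSeq start of Dmp1 held a reversed match 101 bases before that start. The Ibsp and Fam20c matches lie inside the longer GENCODE gene models of these genes. A match is a description of letters, and Spp1, which was abundant, and Mepe, which had no count, both carried one.

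The libraries held 15902886 to 25719244 counts on genes. Levels are given as CPM (counts divided by library size, with libraries matched by the TMM method), on which the detection floor used here, 3 counts, lies at 0.112 to 0.280 CPM. A floor of this kind covers counting error only, whereas the SDs and standard errors given below cover the spread between mice. Il21, the gene of the transgene, had 0, 0 and 37 counts in wild-type mice 1 to 3 against 795, 216 and 131 in IL-21isoTg mice 1 to 3. The epithelial keratin genes and Epcam were read in every library, with Epcam at 778 to 1144 CPM in wild-type and 674 to 1054 CPM in IL-21isoTg MECs. A list of 15 salivary gland genes took 23.8%, 6.79% and 16.3% of each wild-type library and 23.4%, 5.21% and 41.9% of each IL-21isoTg library. IL-21isoTg mouse 3 stands apart in this share, and the log2 fold changes of Spp1, Cd44 and the FAM20 genes are given with and without it. Unless another scale is named, overlap between the genotypes is read in CPM with TMM scaling, where the factor of that library was 0.675. As a share of all counts, without TMM scaling, groups that are apart in CPM can overlap. Of the listed genes named below, this holds for Itga8, Mmp2, Srgn, Has1, Gask1b, Gli1, Il6ra, Il2rg, C1qa and Mertk. Among the 8 genes themselves it holds for Dmp1.

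Spp1 was higher in every IL-21isoTg mouse than in any wild-type mouse. The gap was wide for IL-21isoTg mice 1 and 2 and narrower for mouse 3. The counts of Spp1 were 2199, 3948 and 5103 in wild-type mice 1 to 3 against 36972, 41931 and 6657 in IL-21isoTg mice 1 to 3. As CPM these were 99.2, 189.7 and 229.6 in the former and 1537, 1561 and 621 in the latter. The groups did not overlap, and the lowest IL-21isoTg value, that of mouse 3, was also the one with the highest share of salivary gland genes. The mean was 173 ± 66.8 CPM in wild-type and 1239.6 ± 536 CPM in IL-21isoTg MECs (SD, n = 3 mice each), with a log2 fold change of 2.84 and a standard error (SE) of 0.45, or 7.17-fold. It was 3.17 (SE 0.37) without IL-21isoTg mouse 3 and 2.57 (SE 0.44) without wild-type mouse 1, the mouse with the lowest level. Leaving the salivary gland genes out of the library sizes gave 2.86.

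In the IL-21isoTg mice Spp1 alone took 0.144%, 0.182% and 0.0419% of all counts on genes, against 0.00986%, 0.0232% and 0.0254% in the wild-type mice. On a scale that also divides by transcript length (TPM, a share of all transcripts computed over the exons of a gene), Spp1 stood at place 601, 300 and 250 among all genes in wild-type mice 1 to 3 and at place 40, 30 and 104 in IL-21isoTg mice 1 to 3. In wild-type mice 1 to 3 Spp1 was at 144.4, 354.5 and 389.9 TPM, and in IL-21isoTg mice 1 to 3 at 1996, 2938 and 543.3 TPM. Its RNA was thus well represented without the transgene too. The RNA is bulk, so a larger share of cells that express Spp1 and more Spp1 RNA per cell cannot be told apart. A gene of unknown type, Gm42793, shares 309 bp of exons with Spp1 on the same strand. It had 1, 27 and 39 counts in the wild-type and 209, 112 and 13 in the IL-21isoTg mice, far fewer than Spp1 itself.

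**Figure D1:**
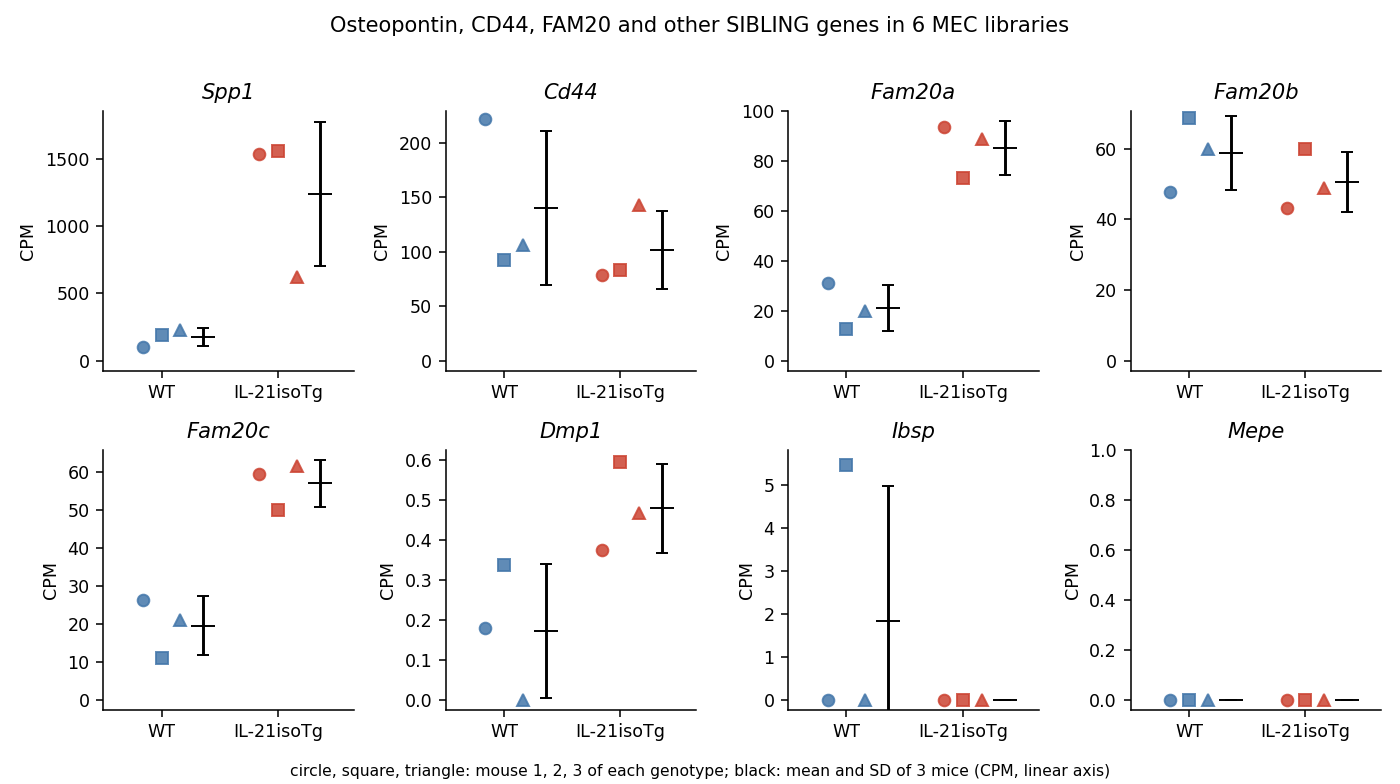
CPM (linear axis, TMM-scaled) of the 8 genes in each of 6 libraries, wild-type in blue and IL-21isoTg in red, with circle, square and triangle for mouse 1, 2 and 3 and the mean with SD of 3 mice in black. The IL-21isoTg points of Spp1 (621 to 1561 CPM), Fam20a (73.1 to 93.5 CPM) and Fam20c (49.96 to 61.6 CPM) lie above all wild-type points, those of Cd44 and Fam20b overlap, and Mepe is at 0 throughout.

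The other secreted members were at or near the floor, apart from Ibsp in 1 library. Dmp1, which encodes a phosphoprotein of dentin and osteocytes, had 4, 7 and 0 counts in the wild-type and 9, 16 and 5 counts in the IL-21isoTg mice. All values were under 1 CPM, and the groups did not overlap in CPM but did as a share of all counts. The gene did not pass the filter on low counts, and no fold change was fitted. Ibsp, which encodes bone sialoprotein, had 114 counts (5.48 CPM) in wild-type mouse 2 and 0 in the other 5 libraries. Mepe had 0 counts in all 6 libraries. Dspp, which encodes dentin sialophosphoprotein and is the remaining gene of the family, had 2, 0 and 1 counts in the wild-type and 15, 0 and 1 in the IL-21isoTg mice. Of the family, Spp1 was the only gene above 1 CPM in more than 1 library. Markers of bone cells were also low, with a summed level of 9.34, 6.05 and 4.99 CPM in the wild-type mice. In IL-21isoTg mice 1 and 2 this was 14.8 and 3.20 CPM, mouse 3 was close to mouse 1, and Sost and Phospho1 were near 0.

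Genes next to Spp1 showed smaller differences than Spp1 itself. Within 500 kb of Spp1 the annotation holds 23 other genes, 12 of them protein-coding, and 8 were tested. The quasi-likelihood test of edgeR, adjusted by the Benjamini-Hochberg method, called 0 of them, as did DESeq2 and limma-voom, and 1 had an unadjusted p under 0.05, against 5.82% of all genes. Without overlap were 3 of the 8, against 12.1% of all genes. Pkd2, the polycystin-2 gene 18.4 kb after Spp1, had 40.7 ± 8.55 and 40.4 ± 11.1 CPM in wild-type and IL-21isoTg MECs, with a difference of -0.01 on the log2 scale (SE 0.25) whose sign depended on the scaling. Sparcl1, at -321.4 kb from Spp1, encodes a matricellular protein related to osteonectin. Its level was 226 ± 93.2 CPM in wild-type and 373 ± 77.6 CPM in IL-21isoTg MECs without overlap, with 0.72 as log2 fold change (SE 0.34, adjusted p = 0.809, edgeR). Thoc2l and Zfp951 were lower without overlap, with log2 fold changes of -0.47 (SE 0.20, adjusted p = 0.809) and -0.88 (SE 0.59, adjusted p = 0.823). Hsd17b11 had a log2 fold change of 0.33 (SE 0.23, adjusted p = 0.827, edgeR), Nudt9 0.18 (SE 0.18), Gm43545 -0.09 (SE 0.41) and Gm42793, the gene that shares exons with Spp1, 2.20 (SE 1.00), all with overlap.

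**Figure D2:**
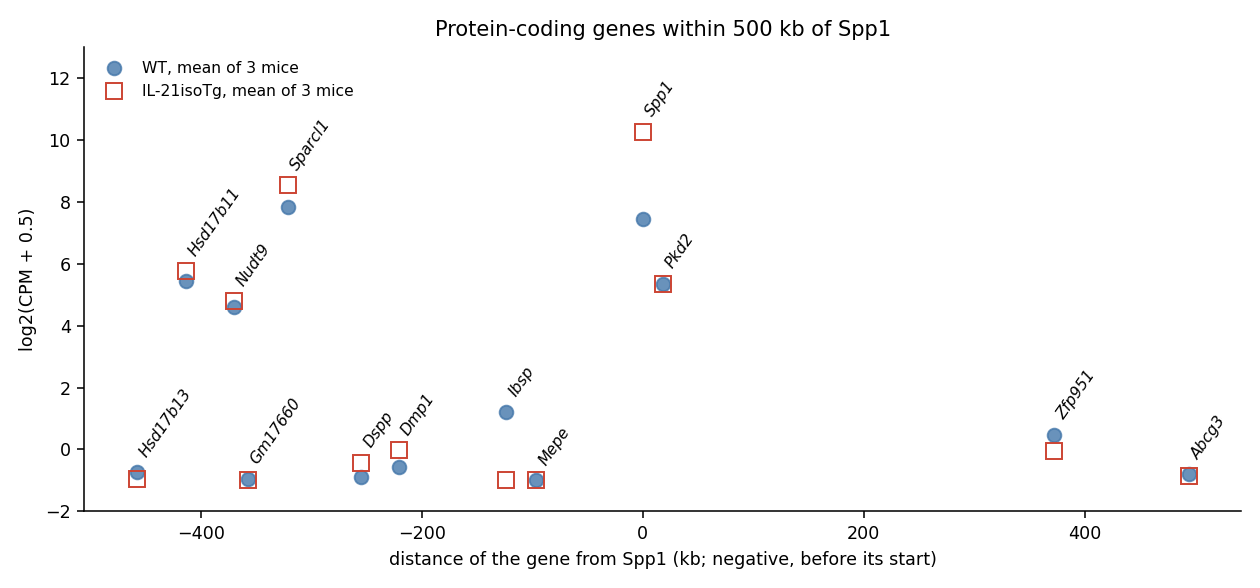
Mean level of 3 mice, as log2(CPM + 0.5), of the protein-coding genes within 500 kb of Spp1 against their distance from it in kb, with wild-type as filled blue circles and IL-21isoTg as open red squares. The 2 symbols stand far apart at Spp1 and nearly coincide at Pkd2, 18.4 kb away, and the clustered genes Dspp, Dmp1, Ibsp and Mepe lie under a mean of 2 CPM.

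Whether Cd44 overlapped between the genotypes depended on the scale. The gene had 4918, 1923 and 2370 counts in the wild-type and 1896, 2228 and 1532 counts in the IL-21isoTg mice, or 221.8, 92.4 and 106.6 CPM against 78.8, 82.9 and 142.9 CPM. On this scale the groups overlapped, with wild-type mouse 1 high and IL-21isoTg mouse 3 above both other wild-type mice. On the TPM scale, which also divides by transcript length and has no TMM scaling, Cd44 was at 78.5, 42.0 and 44.04 TPM against 24.9, 37.97 and 30.4 TPM, lower in the IL-21isoTg mice without overlap, as was its share of all counts on genes. The log2 fold change, fitted with TMM scaling, was -0.47 (SE 0.37). Without wild-type mouse 1 it was 0.04 (SE 0.28) and without IL-21isoTg mouse 3 it was -0.79 (SE 0.39), so both its size and its sign depended on single mice. Wild-type mouse 1 was thus the library with the highest Cd44 and the lowest Spp1, and the ratio of Spp1 to Cd44 on the TPM scale was 1.84, 8.44 and 8.85 in wild-type mice 1 to 3. In the IL-21isoTg mice it was 80.2, 77.4 and 17.9, above the wild-type range in each.

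Of the integrin subunits whose integrins bind OPN, all 10 listed were tested. EdgeR's quasi-likelihood test with adjustment called 0 of them, where 0.0% of all 17165 genes tested were called, and DESeq2 and limma-voom also called 0. At an unadjusted p under 0.05 there were 2 of 10, against 5.82% of all genes. The fitted change was above 0 for 6 and below 0 for 4, with the median log2 difference at 0.17, beside -0.02 over all genes tested. Itga8, which pairs with the β1 subunit, was the 1 subunit of 10 higher without overlap, against 5.54% of all genes. It was at 28.3 ± 14.1 and 64.1 ± 19.04 CPM (log2 fold change 1.18, SE 0.42, adjusted p = 0.809). Itgb1, with the highest CPM of the list, had 362 ± 31.5 and 371 ± 55.9 CPM, and Itgav, the αv subunit, 146 ± 29.4 and 136 ± 33.6 CPM. For these the log2 fold changes were 0.04 (SE 0.18) and -0.10 (SE 0.24), and both changed sign when single mice were left out. Itgb5 had a log2 fold change of 0.30 (SE 0.33).

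Among 11 genes for proteases that cut OPN, the transglutaminase that cross-links it and phosphatases, 7 were tested. Their fitted change was above 0 for 6 and below 0 for 1. The median log2 fold change was 0.53, and 0 were called by edgeR, DESeq2 or limma-voom, and 1 had an unadjusted p under 0.05, against 5.82% of all genes. Mmp2, which encodes a gelatinase, did not overlap, with a log2 fold change of 0.70 (SE 0.37, adjusted p = 0.809, edgeR). Tgm2, which encodes tissue transglutaminase and had the highest CPM of the list, was at 687 ± 329 and 1068 ± 641 CPM, with overlapping groups. Mmp3, encoding stromelysin-1, had a log2 fold change of 0.53 (SE 0.25) and also overlapped.

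All 21 listed genes of hyaluronan metabolism, CD44 partners, CD44 sheddases and CD44 splicing factors were tested, and 8 were above and 13 below 0 with the median log2 difference at -0.07. EdgeR and limma-voom called 0 of them, and 2 had an unadjusted p under 0.05, against 5.82% of all genes. Srgn encodes serglycin, a proteoglycan of secretory granules that binds CD44. Its level was 7.58, 7.16 and 6.07 CPM in the wild-type and 29.6, 21.5 and 10.9 CPM in the IL-21isoTg mice, a log2 fold change of 1.58 (SE 0.35, adjusted p = 0.645 with edgeR), or 1.89 without IL-21isoTg mouse 3. DESeq2 called it, with an adjusted p of 0.00852, where it called 0.466% of all genes in either direction. Has1, a hyaluronan synthase, was also higher without overlap, at 41.1 ± 12.4 and 76.7 ± 21.8 CPM (log2 fold change 0.90, SE 0.28, adjusted p = 0.809, edgeR). Adam10, a protease that sheds CD44, had a log2 fold change of -0.33 (SE 0.26).

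Fam20a and Fam20c were both higher in IL-21isoTg MECs in every mouse, whereas Fam20b was not. Fam20a had 691, 265 and 439 counts in the wild-type and 2250, 1964 and 955 in the IL-21isoTg mice, or 31.2, 12.7 and 19.8 CPM against 93.5, 73.1 and 89.1 CPM. The groups did not overlap, and the highest wild-type value, that of mouse 1, was well under the lowest IL-21isoTg value. The mean was 21.2 ± 9.30 CPM in wild-type and 85.2 ± 10.7 CPM in IL-21isoTg MECs, with a log2 fold change of 2.01 (SE 0.31), or 4.01-fold. Fam20c had 583, 230 and 467 counts and 1427, 1342 and 661 counts, or 26.3, 11.1 and 21.01 CPM against 59.3, 49.96 and 61.6 CPM. These groups did not overlap either, with means of 19.5 ± 7.74 and 57.0 ± 6.19 CPM and a log2 fold change of 1.55 (SE 0.30), or 2.93-fold. In CPM, IL-21isoTg mouse 3 was not low for these genes, in contrast to Spp1, although on the TPM scale it was the lowest IL-21isoTg mouse for both, at 35.4 TPM for Fam20a and 13.5 TPM for Fam20c. Without it the log2 fold changes were 1.98 for Fam20a and 1.499 for Fam20c.

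Fam20b, the xylose kinase, had 1057, 1431 and 1330 counts in the wild-type and 1038, 1609 and 524 in the IL-21isoTg mice, or 47.7, 68.8 and 59.8 CPM against 43.2, 59.9 and 48.9 CPM. The groups overlapped, and the log2 fold change was -0.21 (SE 0.20), or -0.19 (SE 0.22) without IL-21isoTg mouse 3. A gene on the opposite strand, Gm19918, shares 400 bp of exons with Fam20b. It had 22 to 88 counts per library, and whether the counting used strand is not given in the sources used here.

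Of the 8 genes, 7 had a count in at least 1 library, and 5 were abundant enough to be tested. EdgeR's quasi-likelihood test with adjustment called 0 of these 5, as it called 0.0% of all genes, and limma-voom also called 0. DESeq2 called 3 of them, Spp1, Fam20a and Fam20c, all as higher, where it called 0.419% of all genes as higher and 0.0466% as lower. The same 3 were higher without overlap, and none was lower without overlap, where 5.54% of all genes were higher and 6.54% lower without overlap. Nothing is read from these counts, since the genes were chosen from the same contrast.

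**Figure D3:**
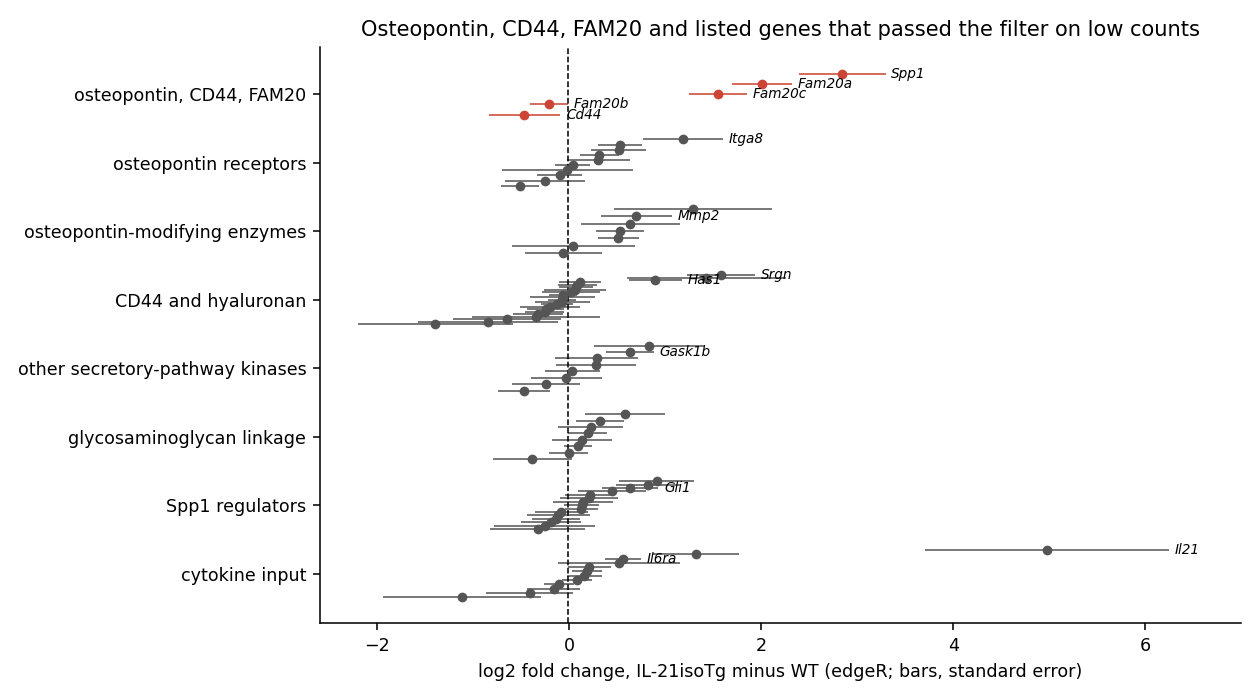
Log2 fold change of IL-21isoTg over wild-type MECs with its standard error (edgeR, n = 3 mice each) for the 5 genes that passed the filter on low counts, in red, and for the listed genes of 7 groups, in grey, with the median of all genes (-0.02) as a dashed line. Spp1 (2.84), Fam20a (2.01) and Fam20c (1.55) lie far to the right, Cd44 (-0.47) and Fam20b (-0.21) to the left, and apart from Il21 (4.98) most listed genes lie near the line.

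The order of levels among the genes was read on the TPM scale. In wild-type MECs it was Spp1 (296 ± 133 TPM), Cd44 (54.9 ± 20.5), Fam20b (18.8 ± 5.56), Fam20a (15.5 ± 4.90) and Fam20c (7.89 ± 2.38; SD, n = 3 mice). The ranges of Fam20b and Fam20a overlapped, and those of the other neighbours in this order did not. In IL-21isoTg MECs the order was Spp1 (1826 ± 1207 TPM), Fam20a (50.95, range 35.4 to 62.4), Cd44 (31.1 ± 6.56), Fam20c (18.8 ± 5.03) and Fam20b (13.25 ± 6.99). Here Fam20a and Cd44 overlapped, as did Fam20c and Fam20b. In IL-21isoTg mice 1 and 2, leaving out mouse 3, Fam20a (55.1 and 62.4 TPM) was above Cd44 (24.9 and 37.97 TPM), and Fam20c (19.3 and 23.5 TPM) still overlapped Fam20b (10.5 and 21.2 TPM). Fam20b was thus the most abundant of the 3 FAM20 genes in wild-type MECs by mean and the least abundant in IL-21isoTg MECs. With the longest transcript as length in place of all exons, the wild-type levels of Fam20b and Fam20c were 27.3 and 10.4 TPM, and the order was kept.

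Fam20a and Fam20c varied together across the 6 libraries. Fam20a exceeded Fam20c on the TPM scale by 2.15, 2.09 and 1.70 times in wild-type mice 1 to 3 and by 2.86, 2.65 and 2.62 times in IL-21isoTg mice 1 to 3. Over the 6 libraries, Pearson's r between their log2(CPM + 0.5) values was 0.99, and Fam20a was the second most alike of 13990 protein-coding genes to Fam20c, after Arid3a (r = 0.99) and before Acap3 (r = 0.98). The r of Spp1 was 0.80 with Fam20a and 0.77 with Fam20c, and it was -0.70 between Fam20a and Fam20b and -0.72 between Fam20b and Fam20c. The difference between the genotypes contributes to each of these values, so they describe these libraries and carry no test. Within each genotype, Fam20c in CPM also had the same order of mice as the share of salivary gland genes. Fam20a did so in the wild-type mice, and IL-21isoTg mouse 2 had the lowest Fam20a and the lowest share of that genotype. The part of salivary gland RNA in these values was not tested. The ratio of Fam20b to Fam20c was 1.36, 4.68 and 2.14 in wild-type mice 1 to 3 against 0.546, 0.901 and 0.596 in IL-21isoTg mice 1 to 3, without overlap. The ratio of Spp1 to Fam20c was 15.1, 68.6 and 43.7 against 104, 125 and 40.3, and the value of IL-21isoTg mouse 3 lay within the wild-type range.

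**Figure D4:**
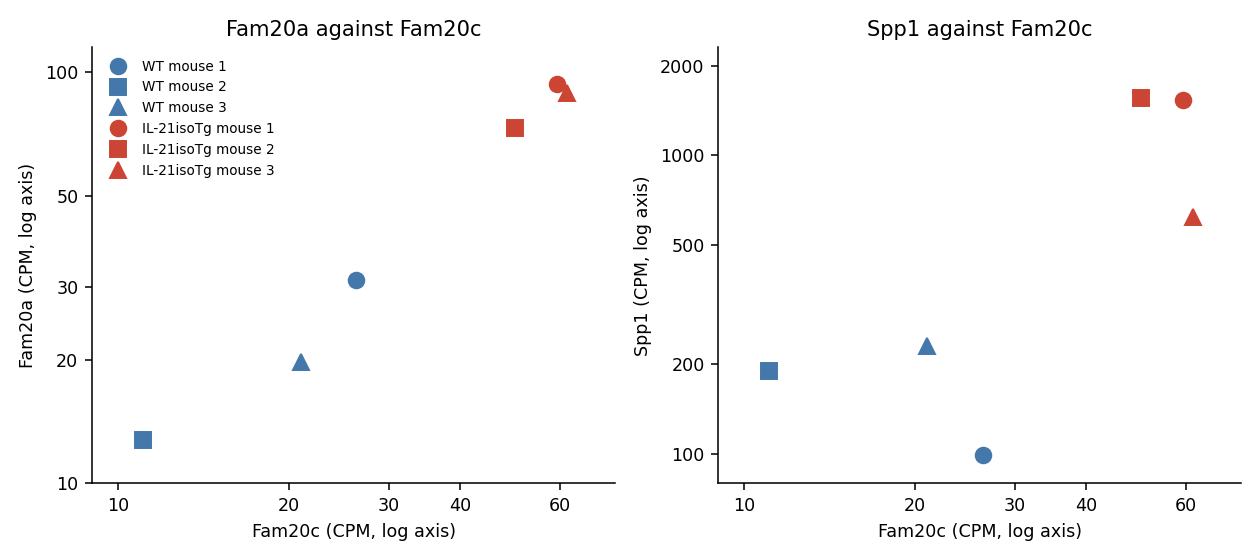
Fam20a (left) and Spp1 (right) against Fam20c in CPM on log axes, 1 point for each of 6 libraries, wild-type in blue and IL-21isoTg in red. Fam20a and Fam20c lie close to 1 line across both genotypes (r = 0.99), while Spp1 varies within each genotype without following Fam20c, as in IL-21isoTg mouse 3 (621 CPM of Spp1 at 61.6 CPM of Fam20c).

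The genes most alike to Spp1 over the 6 libraries were Atp6v1f, Mocs1, Dad1, Duox1 and Col6a1, with r of 0.989 to 0.995, and 57 of 13990 genes had r over 0.95. They differed in the size of the difference between genotypes, with log2 fold changes of 0.26 for Atp6v1f, a subunit of the vacuolar proton pump, 0.66 for Col6a1, a collagen VI chain, and 2.92 (SE 0.53) for Duox1, a hydrogen peroxide-forming oxidase. The genes most alike to Cd44 were Ifit1, Immt and Rtp4, with r of 0.998, 0.996 and 0.994. Ifit1 and Rtp4 are interferon-induced genes, with log2 fold changes of -0.68 (SE 0.58) and -0.53 (SE 0.52), and their wild-type SD was 20.6 of a mean of 26.7 CPM and 17.2 of a mean of 24.6 CPM. The libraries share depth and makeup as well as genotype, and with 6 points many genes reach a high r.

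The relatives of the FAM20 kinases differed less between the genotypes than Fam20a and Fam20c. Of 10 other kinase genes of the secretory pathway, 8 were tested, 5 above and 3 below 0 with the median log2 difference at 0.16, and 0 were called by edgeR, DESeq2 or limma-voom, with 1 at an unadjusted p under 0.05, against 5.82% of all genes. Gask1b, which encodes a Golgi-associated protein of the FAM198 family, was higher without overlap at 9.04 ± 2.41 and 14.04 ± 1.59 CPM (log2 fold change 0.63, SE 0.25, adjusted p = 0.809). Dipk1a, with the highest CPM of the list in wild-type MECs, had a log2 fold change of -0.47 (SE 0.27) with overlap. All 8 genes that build or trim the glycosaminoglycan linkage on which FAM20B acts were tested, 6 above and 2 below 0 with a median of 0.16, and 0 were called by edgeR, DESeq2 or limma-voom or had an unadjusted p under 0.05. B3gat3, which adds glucuronate to the linkage, had a log2 fold change of 0.19 (SE 0.20), and Extl3 0.09 (SE 0.15). Pxylp1, which encodes the phosphatase that removes the phosphate FAM20B adds, had -0.39 (SE 0.41).

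The caseins are the milk substrates of FAM20C, and wild-type and IL-21isoTg MECs had 126 ± 128 and 2123 ± 632 CPM of Csn1s1, 182 ± 293 and 5092 ± 2203 CPM of Csn2, and 389 ± 42.7 and 1584 ± 652 CPM of Csn3, with IL-21isoTg mouse 3 the lowest transgenic mouse for each. The log2 fold changes were 4.08 (SE 0.80), 4.81 (SE 1.51) and 2.02 (SE 0.33), or 4.32, 5.12 and 2.27 without that mouse, and edgeR called 0 of the 3 (adjusted p = 0.489, 0.809 and 0.355), while DESeq2 called Csn1s1 and Csn3 but not Csn2 (adjusted p = 0.068).

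Of 16 transcription factors described in Spp1 transcription, 15 were tested, 9 above and 6 below 0 with the median log2 difference at 0.13. None was called by edgeR, DESeq2 or limma-voom, and 2 had an unadjusted p under 0.05, against 5.82% of all genes. Gli1, a target and effector of Hedgehog signalling, was the 1 factor of 15 higher without overlap, against 5.54% of all genes. Its log2 fold change was 0.63 (SE 0.30, adjusted p = 0.809, edgeR), at under 8 CPM in every mouse. Stat3, which acts downstream of IL-6, had 371 ± 36.8 and 405 ± 35.5 CPM, and Jun, a component of AP-1, had a log2 fold change of -0.33 (SE 0.49).

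The study asked whether cytokines other than IL-21 act on Spp1 in MECs, and 13 genes of these cytokines, of IL-21 and of their receptors were therefore listed. Of these 12 were tested, Il17a being at 0 in all 6 libraries, with 8 above and 4 below 0, a median log2 fold change of 0.17 and 0 called by edgeR, DESeq2 or limma-voom, although 3 (Il21, Il6ra and Il2rg) had an unadjusted p under 0.05, against 5.82% of all genes. The same 3 were higher without overlap, against 5.54% of all genes. Among them Il21 is the gene of the transgene, so a higher level goes with the design and is not read as a finding. The transgene is expressed in T cells, which carry CD45 and were depleted here. Il21 was at 33.1, 8.04 and 12.2 CPM in IL-21isoTg mice 1 to 3. The 6 T cell markers summed to 6.09, 5.14 and 7.15 CPM in wild-type and 7.48, 6.85 and 8.86 CPM in IL-21isoTg mice. Which cells held the Il21 RNA was not tested. Il6 had 46.7 ± 9.80 and 54.1 ± 12.6 CPM in wild-type and IL-21isoTg MECs, and Tnf 62.6 ± 9.07 and 55.8 ± 22.6 CPM, with overlapping groups. Il6ra, the ligand-binding chain of the IL-6 receptor, was higher without overlap at 27.8 ± 5.91 and 40.9 ± 0.978 CPM (log2 fold change 0.56, SE 0.19, adjusted p = 0.809, edgeR), while Il6st, its signalling chain, had a log2 fold change of 0.08 (SE 0.16). Tnfrsf1a, a receptor of TNF-α, had a log2 fold change of 0.18 (SE 0.16). Il21 and Il2rg, the gene of the common γ chain of its receptor, were higher without overlap, with log2 fold changes of 4.98 (SE 1.27, adjusted p = 0.757) and 1.32 (SE 0.45, adjusted p = 0.809). Il21r, the gene of the other chain of that receptor, overlapped at 1.17 ± 0.659 and 1.70 ± 0.868 CPM (log2 fold change 0.52, SE 0.63). Without wild-type mouse 3, the 1 wild-type mouse with Il21 counts, the fitted value of Il21 was 11.5, which is no measure of its size because the remaining wild-type libraries were at 0.

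Markers of other cell types were read beside Spp1, which macrophages and stromal cells also express. The summed level of 13 macrophage markers was 42.4, 31.6 and 39.7 CPM in the wild-type and 40.9, 39.5 and 45.5 CPM in the IL-21isoTg mice, so the groups overlapped. Among the 10 tested, 5 were above and 5 below 0 with the median log2 difference at -0.01, and C1qa, C1qc and Mertk were higher without overlap, against 5.54% of all genes. C1qa and C1qc were low, with 9 to 37 and 3 to 19 counts per library. Csf1r, Lyz2 and Cd68 overlapped, with log2 fold changes of -0.11 (SE 0.26), -0.23 (SE 0.39) and -0.05 (SE 0.42). The 5 B cell markers summed to 1.83 to 6.81 CPM in wild-type and 4.28 to 4.91 CPM in IL-21isoTg MECs. The 9 fibroblast markers summed to 1990, 3550 and 3200 CPM in the wild-type and 5110, 4420 and 4440 CPM in the IL-21isoTg mice, without overlap. As a share of all counts the sums overlapped, at 0.198%, 0.434% and 0.355% against 0.477%, 0.516% and 0.299%. Of these markers 8 of 9 were above 0 with the median log2 difference at 0.57, and 4 were higher without overlap, against 5.54% of all genes. All 6 endothelial markers were above 0 with the median log2 difference at 0.77, and they summed to 103, 222 and 88.4 CPM and 306, 267 and 136 CPM. For basal epithelial markers the median was 0.51 with 8 of 9 above 0, and for luminal markers it was 0.04 with 7 of 13 above 0. Adipocyte markers summed to 0.947, 3.17 and 4.77 CPM in the wild-type and 169, 17.2 and 3.36 CPM in the IL-21isoTg mice. Of T cell markers, 3 of 5 tested were above 0 with the median log2 difference at 0.16, and salivary gland genes were above 0 in 13 of 13 tested with a median of 1.02. EdgeR called 0 genes of these marker lists, and DESeq2 called 2, both fibroblast markers, against 0.466% of all genes. At an unadjusted p under 0.05 there were 3 fibroblast, 2 endothelial, 2 basal and 2 adipocyte markers, and 1 each of the luminal, macrophage and salivary gland lists, where 5.82% of all genes had one. The part of any of these cell types in the levels of Spp1, Fam20a and Fam20c was not tested.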

How the data were processed

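RNA was sequenced as poly(A)-selected, directional libraries from the MECs of 6 mice, 3 of each genotype. The authors deposited raw read counts per gene, and these counts were used here. Their processing notes name mm10, FastQC 0.11.7, Trimmomatic 0.38, HISAT2 2.1.0, SAMtools 1.9, featureCounts 1.6.3 and DESeq2 1.24.0. The annotation and strand setting are not given in the sources used here. Also deposited were counts divided by size factors and a comparison of the genotypes with fold changes and p-values, neither of which was used.

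Groups were taken from the sample labels, with every mouse counted as 1 replicate. Genes were filtered with filterByExpr (minimum count 10, minimum total 15), scaled with TMM and compared with edgeR's quasi-likelihood test (4.0.16, robust, genotype only), with Benjamini-Hochberg adjustment over 17165 genes and calls at an adjusted p under 0.05. Alternatives were DESeq2 1.42.0, limma-voom (limma 3.58.1, R 4.3.3), other scalings and filters, a block for the replicate number and the omission of each mouse. The test was checked on simulated counts. TPM used exon lengths from GENCODE M21 (GRCm38), which held 55141 of the 55487 identifiers, without TMM scaling, so a library rich in salivary gland RNA has lower TPM. Promoters came from RefSeq (GRCm38.p6). Positions and plots were made in Python 3.11.15 with pandas 2.3.3 and matplotlib 3.10.9.

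The genes and the lists were chosen with earlier results of these data known. Named from each pathway list were at most 4 of the genes with the highest mean CPM, those without overlap between the genotypes and any called. Named beside them were the tested neighbours of Spp1 and the genes most alike to Spp1, Cd44 and Fam20c. Cell type markers without overlap or called by DESeq2 were not all named. Epcam, Sost, Phospho1, Il21r and the separate cell type markers were named after their values were seen. Errors cover the spread between these mice. No library pair was a duplicate (chi-square per degree of freedom at least 68.7).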

Additional observations from a re-analysis of the deposited data

How the results depend on the processing

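The log2 fold changes of Spp1, Fam20a, Fam20b and Fam20c kept their sign under all alternatives run, and that of Cd44 under all but the omission of wild-type mouse 1. Leaving out each mouse in turn gave 2.57 to 3.17 for Spp1, 1.74 to 2.41 for Fam20a, 1.27 to 1.84 for Fam20c, -0.35 to -0.09 for Fam20b and -0.79 to 0.04 for Cd44. The same omissions called 0 to 6 genes as higher (6 without wild-type mouse 3) and 0 as lower, and 0 genes of the pathway lists, which do not hold the 8 genes themselves, the caseins, the tested neighbours of Spp1 or the cell type markers. Without a filter on low counts 14 genes were called as higher, and DESeq2 called 72 as higher and 8 as lower, among them 1 gene of the pathway lists, Srgn; the cause was not tested. With the longest transcript as length, wild-type levels were 27.3 TPM for Fam20b and 10.4 TPM for Fam20c. Leaving out single mice turned the sign of Itgb1 (-0.095 to 0.111), Itgav (-0.229 to 0.0924), Tnf (-0.549 to 0.0232), Gm43545 (-0.394 to 0.173) and Pkd2 (-0.146 to 0.209). Without IL-21isoTg mouse 3 the log2 fold change was 0.02 for Il6 (0.21 with it), -0.03 for Tnf (-0.16), -0.09 for Jun (-0.33), 0.07 for Stat3 (0.13), 0.50 for Itgb5 (0.30), 0.11 for Itgb1 (0.04), -0.19 for Itgav (-0.10), -0.21 for Adam10 (-0.33), 0.30 for Nudt9 (0.18) and -0.57 for Zfp951 (-0.88). Pkd2 also turned to 0.0043 with DESeq2's size factors, 0.0184 without salivary gland genes, 0.0044 with DESeq2 and 0.0172 with limma-voom. Csn2 was called without wild-type mouse 3, at a log2 fold change of 8.70 (adjusted p = 0.0252, edgeR), and the range of Csn1s1 was 3.61 to 5.33. That mouse held most of the wild-type Csn2, at 520 CPM against 14.5 and 10.04 CPM in wild-type mice 1 and 2. It was also the highest wild-type mouse for Csn1s1, at 271 CPM against 78.1 and 27.8 CPM.

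Replicate numbers showed no pairing of the mice: the correlation of deviations from the group means was -0.26, 0.096 and -0.06 for mice 1, 2 and 3. It was 0.26 for wild-type mouse 1 with IL-21isoTg mouse 3 and for wild-type mouse 2 with IL-21isoTg mouse 1. The labels name no litter or day, and such values cannot tell whether mice shared one. With the replicate number as a block, 0 genes were called in either direction, and the log2 fold changes were 2.82 for Spp1, 2.09 for Fam20a, 1.63 for Fam20c, -0.40 for Cd44 and -0.21 for Fam20b. Dmp1, Ibsp, Mepe and Dspp did not pass the filter on low counts, and no difference between the genotypes was fitted for them.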
